A study of Mus musculus with 22 samples.

Results

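Cd69, the gene of a receptor that holds T cells in tissue, was followed through 8 RNA-seq libraries of mouse memory T helper cells. It was chosen by name, with earlier results of these data known. It is 1 of 55291 gene names that carry a value in every library, where it occurs in a single row. RefSeq annotates it (gene 12515; Ensembl ENSMUSG00000030156) as protein-coding, with a span of 8052 bp at chr6:129267324-129275375 of GRCm38.p6. In the 7 libraries that could be used its level lay between 81.2 and 162 FPKM (fragments mapped to a gene, scaled by gene length and by all mapped fragments). It was above at least 93.5% of the protein-coding genes listed above 0 in each of these libraries. Cd69 passed in none of the 7 comparisons between groups.

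CD69 is a membrane protein of the C-type lectin family that T cells make soon after their antigen receptor is engaged. It binds the sphingosine phosphate receptor S1PR1 and brings it inside the cell, so that the cell no longer follows the sphingosine phosphate gradient out of tissue into lymph and blood. In lung and other barrier organs it serves as a surface marker of tissue-resident memory T cells (TRM), while the factor KLF2 drives transcription of S1pr1 in recirculating cells.

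The labels name 4 RNA groups of 2 libraries each, spelled as in the titles: TissueExTRM (tissue ex-TRM), TissueExTcirc (tissue ex-Tcirc), CirculatingExTRM (circulating ex-TRM) and CirculatingExTcirc (circulating ex-Tcirc). Tcirc stands for circulating memory cells. Every RNA library is labelled as CD4+ T cells from lung of a female Balb/c host aged 6 to 10 weeks, although the design text has circulating cells taken from blood. According to that text, effector Th2 cells, the helper cells of allergic responses, came from OT-II creERT2 or DO11.10 mice, whose T cells carry a transgenic receptor for ovalbumin (OVA). Recipients were sensitized with OVA and were either BALB/c-nu/nu mice, which lack a thymus and make few T cells of their own, or C57BL/6 (Ly5.2) mice. In one experiment tamoxifen induced recombination and cells were sorted on day 49. In the other, lung TRM and Tcirc cells were moved into naive BALB/c-nu/nu mice and analysed on day 71 after a further OVA challenge. The RNA labels do not say which experiment a library belongs to, nor whether libraries came from separate animals, so p-values measure the spread between libraries, which may be technical.

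CD69 protein was itself one of the markers used to sort the lung cells, per the labels' protocols, and the gate of each population is not given there. Between 3000 and 50000 cells were sorted per population. A difference in Cd69 RNA between sorted populations would therefore not be independent of how they were sorted. Surface CD69 was not measured in these files. In bulk RNA, fewer cells that express a gene and less RNA per cell cannot be told apart. The 14 ATAC-seq samples of the series were not analysed here.

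Gene detection varied between libraries. Above 0 were 37471 and 37894 gene names in TissueExTRM replicates 1 and 2 and 30488 and 32617 in TissueExTcirc. In CirculatingExTRM the numbers were 917 and 29688, and in CirculatingExTcirc 12785 and 7042. CirculatingExTRM replicate 1, with 1 of 12 housekeeping genes above 0, was treated as missing, so this group rests on replicate 2 alone. In CirculatingExTcirc replicate 2, 7 of the 12 housekeeping genes were above 0, and Tbp, Hprt, Ppia, Pgk1 and Sdha were listed at 0, so a gene listed at 0 there may not have been captured. Of 17 T cell identity genes, all 17 were above 0 in the tissue libraries and in CirculatingExTRM replicate 2, and 12 were above 0 in all 7 libraries, among them Cd3e, Cd4 and Trac. Cd8a and Cd8b1 reached at most 1.91 FPKM. The depth of the libraries is unknown, since the files hold no counts.

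Cd69 stood at 162 and 149.6 FPKM in TissueExTRM and at 92.8 and 156 FPKM in TissueExTcirc. In circulation it stood at 120.1 FPKM in ex-TRM replicate 2 and at 81.2 and 125 FPKM in ex-Tcirc. It was listed at 0 in CirculatingExTRM replicate 1, as were most genes there. The highest 3 values were all from tissue, but TissueExTcirc replicate 1 lay below 2 of the 3 circulating libraries, so the locations overlapped. The highest library was 1.99 times the lowest.

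By group, Cd69 averaged 156 ± 8.69 FPKM in TissueExTRM, 124 ± 44.8 in TissueExTcirc and 103 ± 30.8 in CirculatingExTcirc (SD, n = 2 each), with the single CirculatingExTRM library at 120.1. Ranked by these levels from high to low, no neighbouring groups were separated. The TissueExTRM pair lay on both sides of TissueExTcirc replicate 2, and CirculatingExTRM replicate 2 lay within the range of TissueExTcirc and within that of CirculatingExTcirc.

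**Figure D1:**
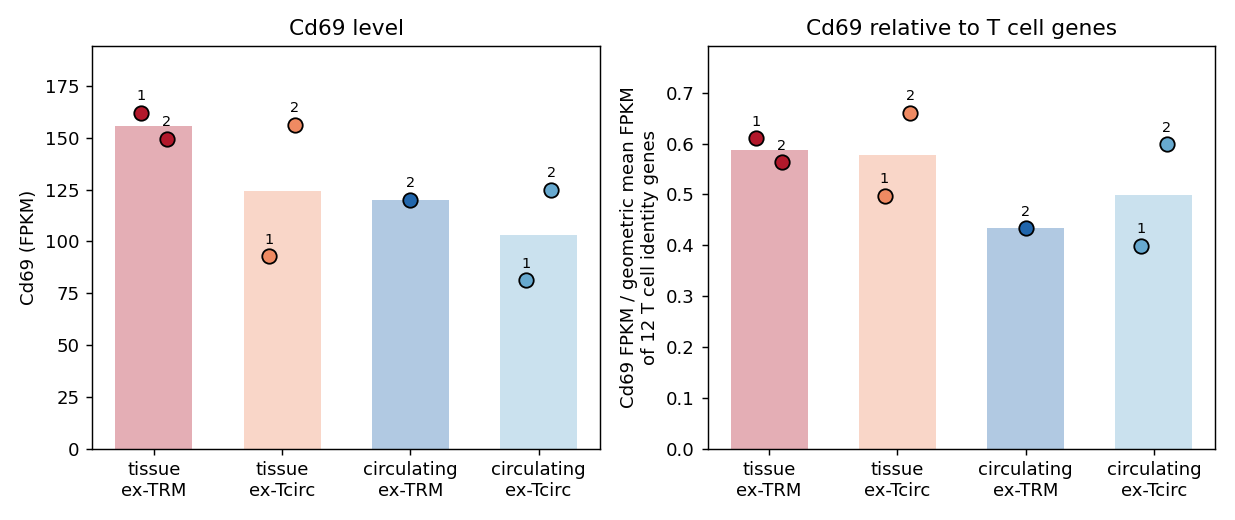
Cd69 by group, with FPKM on the left axis and, in the right panel, Cd69 FPKM divided by the geometric mean FPKM of 12 T cell identity genes of the same library. Points are libraries marked with their replicate number and bars are group means. In FPKM the tissue libraries span 92.8 to 162 and the circulating libraries 81.2 to 125, so the pooled locations overlap, while the TissueExTRM pair lies above every circulating library. In the ratio panel the pooled locations overlap as well.

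Set against all genes of its library, Cd69 was a highly expressed gene everywhere. Among protein-coding genes above 0 it ranked 113 of 16652 and 118 of 16853 in TissueExTRM, and 157 of 13141 and 102 of 14736 in TissueExTcirc. It ranked 213 of 13231 in CirculatingExTRM replicate 2, and 389 of 6000 and 162 of 3172 in CirculatingExTcirc. As a percentile this was 99.3 and 99.3 in TissueExTRM, 98.8 and 99.3 in TissueExTcirc, 98.4 in CirculatingExTRM and 93.5 and 94.9 in CirculatingExTcirc. The CirculatingExTcirc percentiles were the lowest, and they came from the libraries with the fewest genes above 0. The share of this in the percentiles was not tested. With names at 0 included, the percentile over all gene names was 99.1 to 99.4 in tissue. On that count it was 99.1 in CirculatingExTRM replicate 2 and 98.6 and 99.3 in CirculatingExTcirc. Over all gene names above 0 the rank of Cd69 was 347 to 501 in tissue and 376 to 747 in circulation. Above it were 229 to 344 names not matched to a protein-coding gene in tissue and 214 to 358 in circulation.

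**Figure D2:**
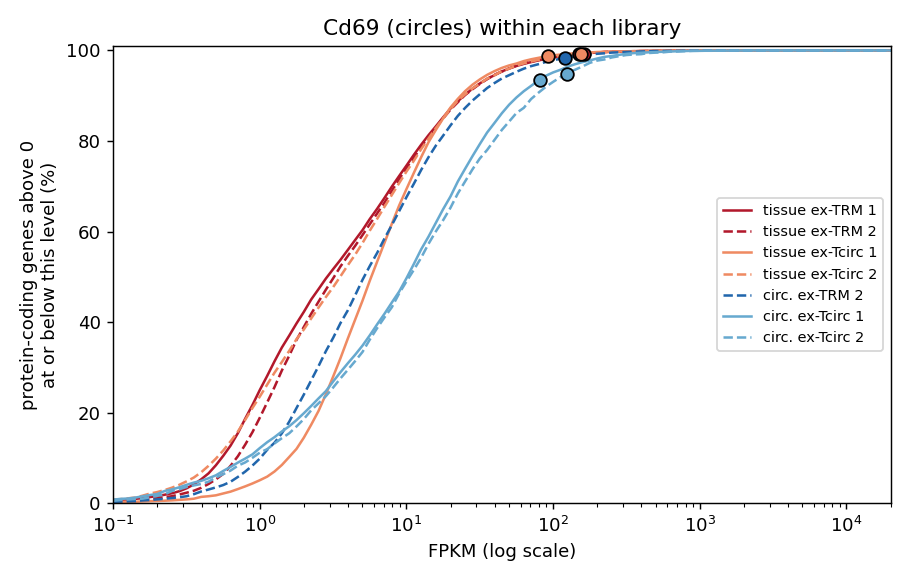
Position of Cd69 within each of 7 libraries. Curves give the percentage of protein-coding genes above 0 (vertical axis) at or below a given FPKM (horizontal axis, log scale), and circles mark Cd69. The circles sit at 98.8% to 99.3% in the 4 tissue libraries, at 98.4% in CirculatingExTRM replicate 2 and at 93.5% and 94.9% in CirculatingExTcirc, whose curves lie to the right.

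How firmly a level like that of Cd69 was captured differed by library. Of 91 other protein-coding genes whose mean over the 4 tissue libraries lay between 112 and 175 FPKM, around the 140.1 FPKM of Cd69, none was listed at 0 in any tissue library, in CirculatingExTRM replicate 2 or in CirculatingExTcirc replicate 1. In CirculatingExTcirc replicate 2, 25 of the 91 (27.5%) were listed at 0. A value from that library, 125 FPKM for Cd69, is thus less certain than the others.

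Relative to other T cell genes, Cd69 varied less. Divided by the geometric mean of the 12 T cell identity genes above 0 in all 7 libraries, it was 0.61 and 0.56 in TissueExTRM and 0.50 and 0.66 in TissueExTcirc. The ratio was 0.43 in CirculatingExTRM replicate 2 and 0.40 and 0.60 in CirculatingExTcirc. TissueExTcirc replicate 1, low in Cd69, was also low in these genes, with a geometric mean of 187 FPKM against 237 in replicate 2 of the group. Across the 7 libraries the ratio spanned 1.65 times from lowest to highest, and the values of the locations again overlapped.

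The library with the highest Cd69 depended on the scale. Rescaled so that each library has the same sum (TPM), Cd69 was at 106 and 108 in TissueExTRM, 59.6 and 95.7 in TissueExTcirc, 80.2 in CirculatingExTRM replicate 2 and 57.4 and 133 in CirculatingExTcirc. CirculatingExTcirc replicate 2, below all but 1 tissue library by FPKM, was highest by TPM. Its FPKM values summed to 939087, against 1382510 to 1632200 in the 4 tissue libraries.

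The first comparison asked whether Cd69 differs between cells recovered from tissue and from circulation. Averaged over origin, the log2 difference of tissue minus circulating was 0.31 ± 0.31 (SE) on the log2(FPKM + 1) scale, a 1.24-fold difference with a 95% interval of 0.69 to 2.23, and it did not pass (limma adjusted p = 0.704). Across all 2656 genes tested, 7.34% were called in this comparison, and Cd69 ranked 1382 by p. The 195 genes called became 0 when any 1 tissue library was left out, and 1860 or 1172 without CirculatingExTcirc replicate 1 or 2. The median log2 difference of all genes was 0.43, so that Cd69 lay 0.11 below it, and 46.8% of genes had a lower difference than Cd69. Under 4 other scalings the median of all genes was 0.22 to 0.62, and Cd69 lay 0.11 to 0.24 below it each time. A two-sided exact permutation test of the 4 tissue against the 3 circulating libraries gave p = 0.314 (log2 difference 0.36), where the smallest p that the 35 arrangements allow is 0.0571.

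Within each origin the tissue value was higher by a similar amount, and again did not pass. Its place among all genes differed, however. The median log2 difference of all genes was -0.06 in ex-TRM, with Cd69 0.43 above it. In ex-Tcirc that median was 0.87, with Cd69 0.61 below it. In ex-TRM the log2 difference was 0.37 ± 0.48 (SE; 95% interval -0.93 to 1.68; limma adjusted p = 1). Here 0% of genes passed in limma, though 87 were under 0.05 before adjustment (unadjusted p), and the circulating side was 1 library. In ex-Tcirc the log2 difference was 0.26 ± 0.39 (SE; 95% interval -0.81 to 1.32; limma adjusted p = 0.666), where 9.11% of genes were called (8.36% higher and 0.753% lower in tissue). The ex-Tcirc difference was -0.12 without TissueExTcirc replicate 2 and -0.05 without CirculatingExTcirc replicate 1, so 1 library decided its sign.

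The second comparison asked whether Cd69 differs by origin. Averaged over location, ex-TRM minus ex-Tcirc was 0.31 ± 0.31 (SE; limma adjusted p = 0.750), 1.24-fold with a 95% interval of 0.69 to 2.22, where 4.97% of genes were called. The exact permutation test of 3 ex-TRM against 4 ex-Tcirc libraries was two-sided and gave p = 0.286 (log2 difference 0.37), and its smallest possible p is also 0.0571. In tissue the difference was 0.37 ± 0.39 (SE; 95% interval -0.70 to 1.43; limma adjusted p = 1), where 0% of genes passed, and 7 were under 0.05 by unadjusted p. Without TissueExTcirc replicate 1 it was -0.0049 (limma adjusted p = 1). In circulation it was 0.25 ± 0.48 (SE; 95% interval -1.05 to 1.56; limma adjusted p = 0.789), where 6.63% of genes were called (6.59% higher and 0.0377% lower in ex-TRM). It was -0.05 without CirculatingExTcirc replicate 1. Averaged over location, the median log2 difference of all genes was 0.61, so that Cd69 lay 0.30 below it. The genes called there were all higher in ex-TRM. In tissue that median was 0.17, with Cd69 0.20 above it, and in circulation it was 1.06, with Cd69 0.81 below it.

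The difference between locations did not itself differ detectably by origin. The interaction term was 0.11 ± 0.62 (SE; 95% interval -1.57 to 1.80; limma adjusted p = 0.940), in a comparison that called 0.151% of genes. It was -0.26 without TissueExTcirc replicate 1 and -0.19 without CirculatingExTcirc replicate 2. The intervals of all 7 comparisons include no change and also include a doubling, so none shows that Cd69 is alike between groups.

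**Figure D3:**
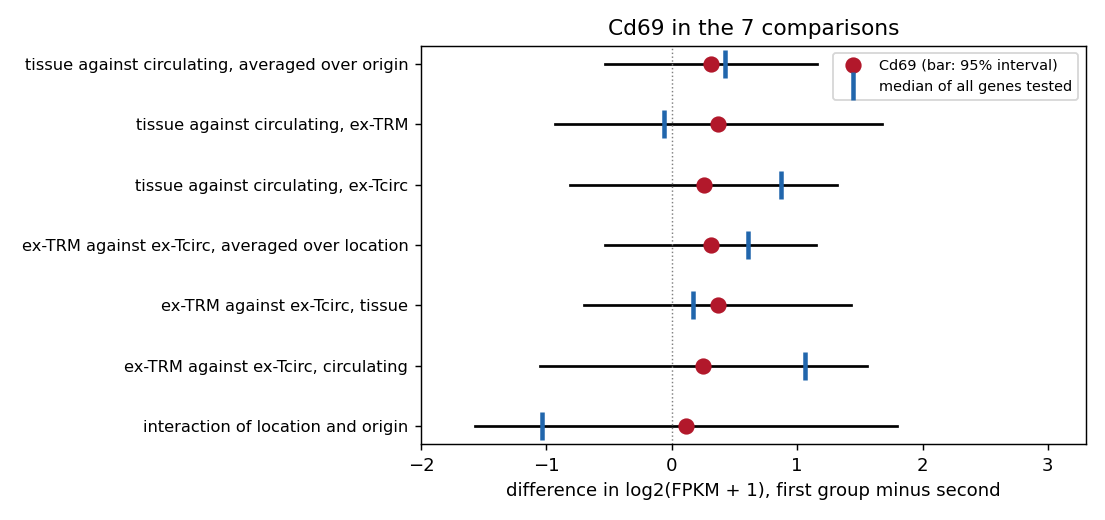
Cd69 in 7 comparisons, as the difference in log2(FPKM + 1) on the horizontal axis. Circles are the limma estimates for Cd69, lines their 95% intervals and blue ticks the median of all 2656 genes tested. The estimates lie between 0.11 and 0.37 and every interval crosses 0.

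S1pr1, whose product CD69 takes off the cell surface, was higher in the circulating libraries that detected it than in any tissue library. It was at 4.16 and 5.34 FPKM in TissueExTRM and 3.83 and 2.99 in TissueExTcirc. It was at 59.5 FPKM in CirculatingExTRM replicate 2 and at 46.4 and 0 in CirculatingExTcirc. With a mean under 20 FPKM it was not tested. In the tissue libraries Cd69 was thus 24.2 to 52.2 times S1pr1 per length, against 2.02 and 1.75 times in the circulating libraries where S1pr1 was above 0.

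Of the 12 genes fixed as partners of CD69, 6 were tested between tissue and circulating and none passed, where 7.34% of all genes were called. Their median log2 difference was 1.03, against 0.43 over all genes, but 4 of the 6 (Lgals1, Myl12a, Slc3a2 and Jak3) were listed at 0 in CirculatingExTcirc replicate 2 alone. Without that library, which leaves no replicates in circulation, 5 of the 6 differences were negative (log2 difference -0.83 for Myl12b). The signs over all genes in that setting are not given here, so this describes the 6 alone. S100a8, S100a9 and Myl9, whose products have been described as CD69 ligands, were listed at 0 in all 7 libraries. Lgals1, the gene of the ligand galectin-1, was at 142 and 140.4 FPKM in TissueExTRM and 156 and 181 in TissueExTcirc. It was at 352 in CirculatingExTRM replicate 2 and 289 and 0 in CirculatingExTcirc, so the detected circulating values were the highest (limma adjusted p = 0.820, with an SE of 2.23 on the log2 difference). Without CirculatingExTcirc replicate 2 the log2 difference of Lgals1 was -1.04, and without replicate 1 it was 3.05, so its sign depended on which of these libraries was kept.

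The myosin light chain genes Myl12a and Myl12b were at 42.9 to 55.9 and 49.9 to 58.4 FPKM in tissue. In circulation, Myl12a was at 54.9, 64.5 and 0 and Myl12b at 78.4, 116 and 68.5 (CirculatingExTRM replicate 2, then CirculatingExTcirc). Slc3a2, the heavy chain of the amino acid transporter that associates with CD69, was at 70.5 and 68.7 FPKM in TissueExTRM and 36.0 and 40.3 in TissueExTcirc. It was at 56.8 in CirculatingExTRM replicate 2 and 36.5 and 0 in CirculatingExTcirc. Its light chain gene Slc7a5 stayed at 11.0 to 23.8 FPKM in all 7 libraries.

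The kinase gene Jak3 and the transcription factor genes Stat5a and Stat5b, which act in cytokine receptor signalling and have been linked to the CD69 tail, lay below Cd69 in all 7 libraries. Jak3 was at 15.8 to 29.0 FPKM across the tissue libraries, against 28.0, 21.9 and 0 in circulation. Stat5a was at 11.1 to 15.0 FPKM across the tissue libraries, against 18.2, 21.7 and 0 in circulation, in the same order. Stat5b was at 13.9 to 28.7 FPKM across the tissue libraries, against 33.6, 46.1 and 54.6 in circulation, where the locations did not overlap, but it did not pass (log2 difference -1.02 ± 0.37, SE; limma adjusted p = 0.274). Cd69 was above all 12 partners in TissueExTRM. It was below Lgals1 in 4 of the other 5 libraries, and in CirculatingExTcirc replicate 1 also below Myl12b.

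Among 12 egress genes, 3 were tested and 1 was lower in tissue, where 0.791% of all genes were called lower. That gene, Klf2, was at 31.0 and 28.4 FPKM in TissueExTRM and 26.1 and 20.9 in TissueExTcirc, against 174 in CirculatingExTRM replicate 2 and 183 and 159 in CirculatingExTcirc (log2 difference -2.67 ± 0.22, SE; limma adjusted p = 0.0239). Its call was lost when any 1 tissue library was left out (limma adjusted p = 0.128 to 0.385). Cd69 was 5.23 and 5.27 times Klf2 per length in TissueExTRM and 3.56 and 7.48 times in TissueExTcirc. It was 0.69 times Klf2 in CirculatingExTRM replicate 2 and 0.44 and 0.78 times in CirculatingExTcirc. This ratio did not overlap between the locations, and neither did Klf2 itself, whereas Cd69 did.

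Of 12 residency genes, 6 were tested and limma called 2, the chemokine receptor genes Cxcr6 and Ccr8, where 6.55% of all genes were called higher in tissue. Cxcr6 was at 88.8 and 70.4 FPKM in TissueExTRM, 60.7 and 72.7 in TissueExTcirc, 41.0 in CirculatingExTRM replicate 2 and 0 in both CirculatingExTcirc libraries. Ccr8 was at 83.6 and 68.6 FPKM in TissueExTRM, 43.7 and 66.6 in TissueExTcirc, 4.59 in CirculatingExTRM replicate 2 and 0 in both CirculatingExTcirc libraries. Both reached the 20 FPKM mean needed for testing only through the tissue libraries, where they are high, whereas S1pr1, high only in circulation, missed it. Their calls are therefore given as descriptions, and their log2 differences of 3.50 and 4.78 depend on the zeros and the pseudocount. With any 1 tissue library left out neither passed (limma adjusted p = 0.128 to 0.385). Itgae, the integrin chain that often marks resident cells together with CD69, reached at most 4.57 FPKM. Rgs1, a regulator of G protein signalling, stood at 114 and 122 FPKM in TissueExTRM, 56.7 and 70.8 in TissueExTcirc, 84.8 in CirculatingExTRM replicate 2 and 64.5 and 53.1 in CirculatingExTcirc (log2 difference 0.29 ± 0.21, SE; limma adjusted p = 0.608).

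Transcription factors that act on the Cd69 locus or are induced with it varied widely in level. Of 21 genes listed, 11 were above 0 in all 7 libraries, 4 stayed under 20 FPKM in all 7 and 2 were at 0 in both CirculatingExTcirc libraries. In all, 16 were tested between tissue and circulating and none passed, where 7.34% of all genes were called. The median log2 difference of the 16 was 0.57, against 0.43 over all genes. The AP-1 genes Fos, Junb and Jund were at 458 to 677, 347 to 538 and 268 to 335 FPKM across the tissue libraries, against 352 to 434, 295 to 415 and 212 to 286 FPKM in circulation. Of the other AP-1 genes tested, the log2 difference was 0.68 for Fosb, 0.55 for Jun and -0.18 for Fosl2. Fosl2 reached 303 FPKM in CirculatingExTcirc replicate 2. Egr1, an early response factor, was at 55.3 to 88.1 FPKM across the tissue libraries, against 28.4, 62.3 and 11.0 FPKM in CirculatingExTRM replicate 2 and CirculatingExTcirc. Nfatc1, a factor downstream of calcium signalling, was at 37.6 to 63.0 FPKM across the tissue libraries and 62.0 to 155 in circulation. Gata3, the Th2 lineage factor, was at 194 to 274 FPKM across the tissue libraries, against 186, 49.4 and 231 in circulation.

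Of 21 genes that T cells induce on activation, as they do Cd69, 12 were above 0 in all 7 libraries. In this list 17 were tested and 2 were higher in tissue, Il2ra and Cd40lg, where 6.55% of all genes were called higher. The list's median log2 difference was 0.09, against 0.43 over all genes. Il2ra, which encodes an interleukin 2 receptor chain, stood at 89.3 and 69.3 FPKM in TissueExTRM and 80.3 and 79.1 in TissueExTcirc, against 50.5 in CirculatingExTRM replicate 2 and 15.6 and 15.4 in CirculatingExTcirc (log2 difference 1.46 ± 0.23, SE; limma adjusted p = 0.0399). With any 1 tissue library left out it did not pass (limma adjusted p = 0.172 to 0.436). Cd69 was 1.16 to 2.16 times Il2ra per length in tissue and 2.38 to 8.11 times in circulation.

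Cd40lg, the helper cell ligand of B cell CD40, stood at 125 and 115 FPKM in TissueExTRM, 61.6 and 91.7 in TissueExTcirc, 93.4 in CirculatingExTRM replicate 2 and 0 in both CirculatingExTcirc libraries. Its call rests on those zeros, and with any 1 tissue library left out it did not pass either (limma adjusted p = 0.128 to 0.385). Tnfaip3, an inhibitor of NF-kB signalling, was at 406 to 731 FPKM across the tissue libraries and 525 to 684 in circulation. Nr4a1, a nuclear receptor gene induced through the T cell receptor, was at 130 to 254 FPKM across the tissue libraries and 106 to 210 in circulation. The values of both genes overlapped between the locations.

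**Figure D4:**
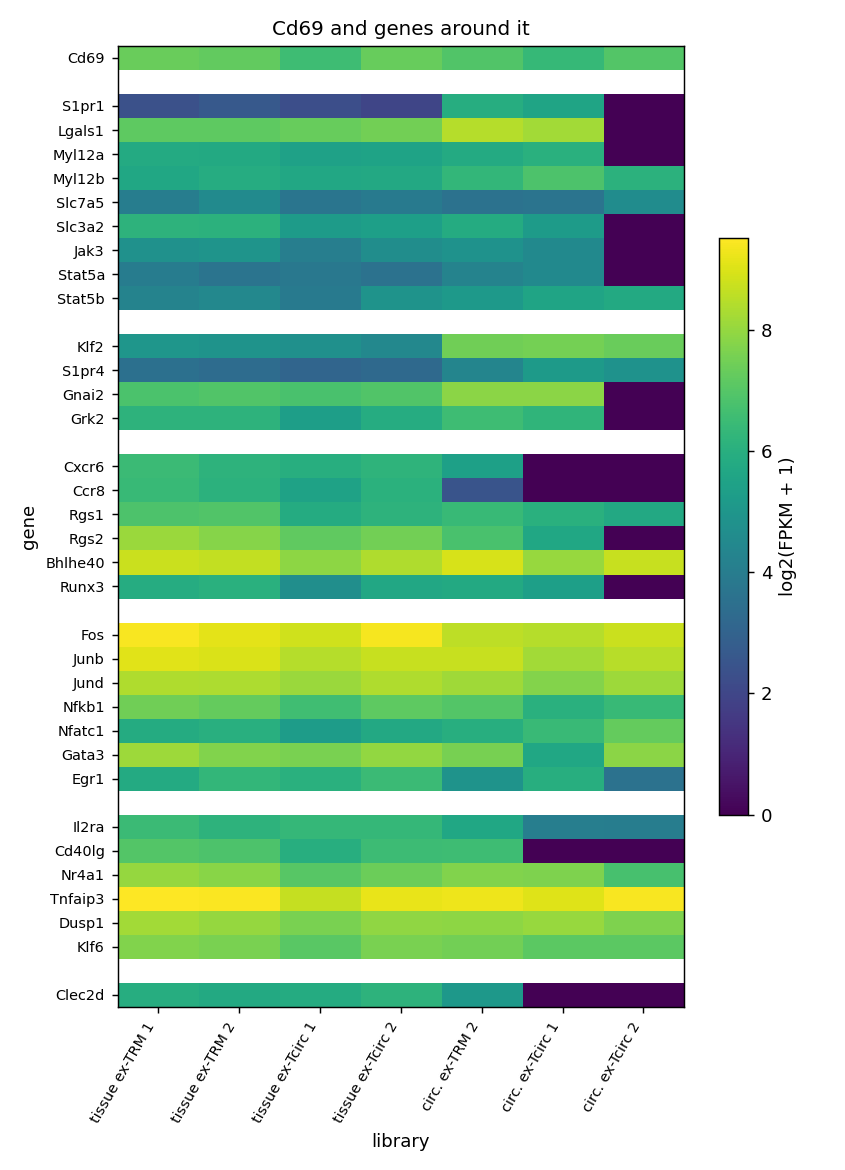
Levels of Cd69 and of selected genes around it in 7 libraries, as log2(FPKM + 1) by colour, with libraries in columns. Blocks from top to bottom are Cd69, partners of CD69, egress genes, residency genes, transcription factors, activation genes and the lectin gene Clec2d. Cd69 lies between 6.36 and 7.35 in every column, while Klf2 is higher and Il2ra lower in the circulating columns, and Cxcr6, Ccr8, Cd40lg and Clec2d are listed at 0 in both CirculatingExTcirc columns.

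Cd69 lies in the natural killer gene complex of chromosome 6, a cluster of lectin receptor genes. In all 7 libraries it was above each of 28 other genes listed for this complex, a list that does not hold every gene of it. No other RefSeq gene overlaps the span of Cd69. The nearest named neighbour in the files was the long noncoding RNA 2310001H17Rik, 28842 bp away at lower coordinates, at 6.33 to 9.18 FPKM in tissue, 3.80 in CirculatingExTRM replicate 2 and 0 in both CirculatingExTcirc libraries. Clec2d, a lectin gene 80789 bp away on the same side, was at 60.1 and 54.0 FPKM in TissueExTRM and 57.2 and 70.4 in TissueExTcirc. It was at 32.5 in CirculatingExTRM replicate 2 and 0 in both CirculatingExTcirc libraries.

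Clec2d was the 1 tested member of 28 lectin receptor genes, and it met the filter only through the tissue libraries, where it is high. Its limma call (log2 difference 3.40 ± 0.30, SE; adjusted p = 0.0239) is therefore a description, and its size rests on those zeros and on the pseudocount. It did not pass with any 1 tissue library left out (limma adjusted p = 0.128 to 0.385). Of the 28 genes, 26 stayed under 20 FPKM in all 7 libraries and 11 were listed at 0 in all of them. Clec2m and Clec12a, the neighbours at higher coordinates, were at 0 in all libraries and at 0 to 3.02 FPKM.

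The genes closest to Cd69 in level were Ptpn22, Rasal3, Srsf5, Nfkb1 and Eif4a2, out of 2683 protein-coding genes above 0 in all 7 libraries. Their root mean square differences from Cd69 in log2(FPKM + 1) were 0.12, 0.16, 0.25, 0.25 and 0.26. Ptpn22, a phosphatase that restrains T cell receptor signalling, was at 168 and 183 FPKM in TissueExTRM, 98.0 and 163 in TissueExTcirc, 119 in CirculatingExTRM replicate 2 and 82.1 and 116 in CirculatingExTcirc. In every library it lay close to Cd69. Rasal3 encodes a regulator of Ras in blood cells, Srsf5 a splicing factor, Nfkb1 an NF-kB subunit and Eif4a2 a translation helicase.

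By Pearson correlation of log2(FPKM + 1) over the 7 libraries, the first 5 genes were Mllt6 (r = 0.990), Srsf5 (r = 0.986), Ptpn22 (r = 0.965), Jund (r = 0.955) and Ccnd2 (r = 0.945). Mllt6 encodes a chromatin-associated protein and Ccnd2 a D-type cyclin. Among the 2683 genes, 7.23% had r over 0.7, and the 7 points share library depth and scaling, so these values are descriptions. All 5 genes were lowest in the same pair of libraries as Cd69, CirculatingExTcirc replicate 1 and TissueExTcirc replicate 1.

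Cd69 varied less between libraries than most genes. Its SD of log2(FPKM + 1) over the 7 libraries was 0.38, and 21.6% of 2684 protein-coding genes above 0 in all 7 had a smaller one. Among the 942 of these with a mean of at least 20 FPKM, 30.8% had a smaller one. The median gene of those 942 spanned 2.72 times from its lowest to its highest library, against 1.99 times for Cd69.

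**Figure D5:**
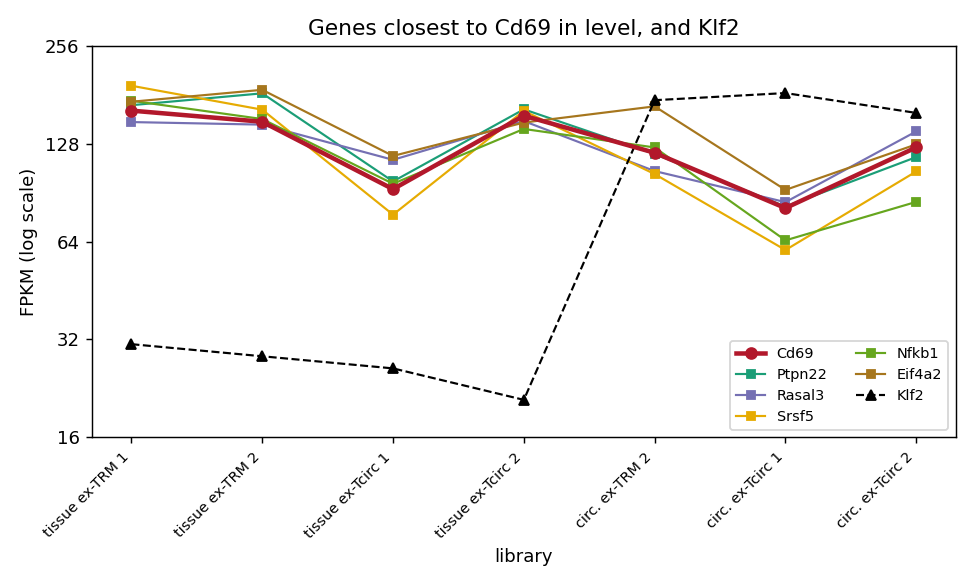
FPKM (vertical axis, log scale) of Cd69, of the 5 genes closest to it in level and of Klf2 in 7 libraries along the horizontal axis. All 5 genes are lowest, as Cd69 is at 81.2, in CirculatingExTcirc replicate 1, whereas Klf2 is at 20.9 to 31.0 in tissue and 159 to 183 in circulation.

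The 2 libraries lowest in Cd69 also had, each on its side, the highest sums of markers of monocytes and macrophages, antigen-presenting cells, epithelium, B cells, eosinophils with basophils and mast cells, endothelium, fibroblasts and platelets. Monocyte and macrophage markers summed to 215 FPKM in TissueExTcirc replicate 1, within a tissue range of 109.6 to 215, and to 705 FPKM in CirculatingExTcirc replicate 1, within a circulating range of 129 to 705. Of 9 such markers, 5 to 8 were above 0 in tissue and 3 to 7 in circulation. Lyz2 gave 114 and 646 FPKM of these 2 sums, and Ccr2 gave 59.0 and 20.1. In TissueExTcirc replicate 2, the lowest tissue sum, Ccr2 gave 68.2 of the 109.6 FPKM. Marco was at 0 in all 7 libraries. In TissueExTcirc replicate 1 and CirculatingExTcirc replicate 1, eosinophil, basophil and mast cell markers reached 21.0 and 66.4 FPKM. Endothelial markers reached 32.9 and 60.5 there, and fibroblast markers 34.6 and 22.0. Above 0 were 3 and 2 of 8 members of the first list, 5 and 2 of 6 endothelial and 4 and 3 of 6 fibroblast members. Most of the 66.4 was Ear2 alone (65.5), and most of the 60.5 was Pecam1 (52.3). Markers of antigen-presenting cells summed to 121 FPKM in TissueExTcirc replicate 1, within a tissue range of 21.9 to 121, and to 448 FPKM in CirculatingExTcirc replicate 1, within a circulating range of 7.62 to 448. They had 6 to 7 of 7 members above 0 in tissue and 1 to 5 of 7 in circulation. Markers of alveolar and airway epithelium summed to 93.3 and 623 FPKM in these libraries, within ranges of 4.1 to 93.3 in tissue and 0 to 623 in circulation. Here 1 to 6 of 7 members were above 0 in tissue and 0 to 4 of 7 in circulation, with Krt8 at 0 in all 7 libraries. Sftpc alone gave 44.4 of the 93.3 and 421 of the 623 FPKM. Epcam and Sftpb were at 0 in CirculatingExTcirc replicate 1.

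B cells and natural killer cells can express Cd69 as well. B cell and plasma cell markers summed to 411 FPKM in TissueExTcirc replicate 1 and 257 in CirculatingExTcirc replicate 1, within ranges of 21.7 to 411 in tissue and 0 to 257 in circulation. Of 9 such markers, 4 to 7 were above 0 in tissue and 0 to 4 in circulation, and Cd79a and Cd79b were at 0 in all 7 libraries. Natural killer markers summed to 3.93 to 14.2 FPKM across the tissue libraries and 0 to 24.4 in circulation, with 2 to 4 and 0 to 3 of 8 members above 0 and with Ncr1 and Gzma at 0 in all. The part of other cells in the Cd69 values was not tested.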

How the data were processed

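RNA-seq of sorted mouse CD4+ T cells was deposited as 1 FPKM value per gene name and library. The deposited FPKM are the authors' values, per the file headers. HISAT2 2.2.1, StringTie 3.0.1, Trim Galore 0.6.7 and SAMtools 1.15 are listed, with mm10 and without roles, per the submitters' processing notes. Libraries were strand-specific, per the labels' protocols, but the strand setting of the quantification, its annotation and its filters are not stated there. FPKM is shared among all mapped RNA, and protein-coding names held 10.2% to 14.1% of the sums in the 7 libraries used.

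Groups and replicates follow the sample titles. Repeated names were summed. Gene types came from RefSeq GRCm38.p6 (70.8% of names matched). Group means of log2(FPKM + 1) were modelled in limma 3.58.1 (R 4.3.3), using its intensity trend, over 2656 genes with a mean of at least 20 FPKM in 7 libraries, with Benjamini-Hochberg adjustment at 0.05. This scale understates changes of low genes. The fit was tested on simulated data. Differences run tissue minus circulating and ex-TRM minus ex-Tcirc. The gene, the minimum and the lists were chosen with earlier results of these data known. Named are Cd69, its partners, list members that passed, the 5 genes most correlated with Cd69 and the 5 closest in level. Other examples from the lists were chosen after their values were seen. No batch is named in the labels. Alternatives were other pseudocounts, filters, scalings, a replicate block, all 8 libraries, library weights, no trend, highest value per name, only the groups compared and leaving out each library.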

Additional observations from a re-analysis of the deposited data

How the results depend on the processing

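Cd69 passed in none of the alternatives run for its 7 comparisons (adjusted p = 0.193 at the lowest). Tissue minus circulating kept its sign in all 20 alternatives averaged over origin (0.10 to 2.04; 0.13 to 0.50 leaving out each library) and in all 21 in ex-TRM (0.31 to 0.43 leaving out each library). The large values came from all 8 libraries, where Cd69 is listed at 0 in circulating ex-TRM replicate 1. Other signs turned. In ex-Tcirc tissue minus circulating was -0.21 with TPM and -0.11 over protein-coding genes, and -0.12 to 0.63 leaving out each library. Averaged over location, ex-TRM minus ex-Tcirc was -0.12 over protein-coding genes, -0.0691 scaled to T cell genes and -1.42 with all 8 libraries. In circulation it was -0.12 with TPM, -0.39 over protein-coding genes, -0.17 scaled to T cell genes, -3.21 with all 8 libraries and -0.0544 to 0.56 leaving out each library. In tissue it was -0.0049 to 0.74, and the interaction -0.26 to 0.49, leaving out each library. The permutation difference between origins was -0.0484 over protein-coding genes and -1.42 with all 8 libraries. The cause was not tested. Among partners, the location difference leaving out each library was -0.27 to 2.75 for Myl12a, -0.0700 to 2.19 for Jak3 and -1.04 to 3.05 for Lgals1, lowest without circulating ex-Tcirc replicate 2 and highest without replicate 1, and 0.93 for Myl12b and 0.26 for Stat5b with all 8 libraries.

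The 195 genes called between tissue and circulating were 77 with a pseudocount of 10, 4345 with no filter, 3618 when 2 libraries at 1 FPKM or more sufficed, 56 with median-of-ratios scaling and 113 with TPM. They were 0 among genes above 0 in all libraries, with the replicate block, library weights or all 8 libraries, and 0 to 1860 leaving out each library. The other comparisons called 0 to 5984 genes across alternatives. With the replicate block the location difference of Cd69 was 0.42 (limma adjusted p = 0.715), and Klf2, Il2ra, Cxcr6, Ccr8, Cd40lg and Clec2d did not pass (limma adjusted p = 0.165 to 0.184). Deviations of same-numbered libraries from their group means were nearly uncorrelated over genes (correlations -0.09 to 0.01), with circulating ex-TRM left out. Correlations over all genes cannot show that the numbers carry no pairing, since a deviation shared by some genes could be missed. Without circulating ex-TRM replicate 2 only the ex-Tcirc and tissue comparisons could be fitted. Library depth is unknown.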
